A study of Arabidopsis thaliana with 12 samples.

Results

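A set of 10 Arabidopsis thaliana genes that encode secreted proteins of the cell surface was followed in NAD-capped RNA and in all RNA of seedlings. They were chosen by gene name and locus: 4 lipid transfer protein genes (LTP1, LTP2, LTP3 and LTP4, loci AT2G38540, AT2G38530, AT5G59320 and AT5G59310) and 6 hybrid proline-rich protein genes (AT2G45180, AZI1 at AT4G12470, EARLI1 at AT4G12480, AT4G12490, AT2G10940 and CWLP at AT3G22120). They are 10 of the 22337 genes that had at least 1 read in any library, and all 10 had reads. LTP4 had none that carried the tag.

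Lipid transfer proteins are small secreted proteins with a set of conserved cysteines that form a pocket for fatty acids and other lipids. In leaves and stems several of them are made in the epidermis and are linked to the cuticle. Hybrid proline-rich proteins join the same cysteine-rich domain to a proline-rich stretch and sit at the cell wall or membranes. NAD capping means that a transcript begins with NAD+ in place of the usual cap.

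All libraries came from Col-0 wild-type seedlings, 12 days old, grown at 23 °C with 16 h of light and 8 h of darkness without further treatment. In NAD tagSeq the enzyme adenosine diphosphate ribosylcyclase (ADPRC) allows a synthetic tag RNA to be attached to NAD-capped transcripts, and single RNA molecules are then read directly by nanopore. Tagged molecules were enriched from poly(A) RNA in 3 libraries with ADPRC and in 3 libraries without ADPRC. Poly(A) RNA without enrichment was read in 3 libraries with ADPRC and in 1 library without it. Enriched total RNA was read in 1 library with ADPRC and in 1 without it. Whole seedlings were used, so fewer cells of a type and less RNA per cell cannot be told apart. Whether each replicate was grown separately is not stated in the labels, so every p-value here reflects the scatter among libraries alone, which may be technical.

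The enriched poly(A) libraries with ADPRC held 1175516 to 1233999 reads, of which 14.1% to 23.9% were tagged. Those without ADPRC held 390009 to 948433 reads, of which 0.132% to 0.224% were tagged. Unenriched libraries held 378322 to 619122 reads with ADPRC (0.546% to 0.743% tagged) and 434742 without it, of which 9 reads were tagged. Total RNA gave 6479 reads with ADPRC and 1237 without. Levels are given as TPM, the name in the deposited files, and are reads scaled to the same total of all reads in each library with no correction for length. In direct RNA sequencing 1 read is 1 molecule, so levels of different genes in all reads compare molecules. The tag sits at the start of the transcript, so a read that does not hold that end cannot count as tagged. How far the reads of each gene reached was not tested. Tagged levels and tagged shares therefore need not compare molecules between genes. The shoot markers RBCS1A, CAB1 and PSBO1 averaged 17553, 24424 and 5219 TPM in unenriched libraries with ADPRC. Of 5 root markers PYK10 averaged 2786 TPM there and was the only 1 at 100 TPM or more. The seed storage genes SESA1 and CRU3 averaged 1.48 and 4.32 TPM in the same libraries, and the flower gene AG was at 0.

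In all reads the 10 genes covered a wide range of levels. AT2G45180, a hybrid proline-rich protein gene without a symbol in the files, had 12850, 8524 and 7690 TPM in enriched libraries with ADPRC, 10074, 8308 and 6857 TPM in enriched libraries without it, 9690, 8953 and 7305 TPM in unenriched libraries with ADPRC and 8803 TPM in the unenriched library without it. It ranked 5 among all genes after enrichment and 12 before it, with ADPRC. The 4 groups overlapped, and AT2G45180 lay above every other gene of the 10 in each poly(A) library.

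LTP1 followed at 2271 ± 251 TPM in unenriched libraries with ADPRC, then AT2G10940 at 1293 ± 187 TPM, CWLP at 402 ± 52.2 TPM, LTP2 at 343 ± 71.9 TPM and AZI1 at 104 ± 7.26 TPM (SD, n = 3 each). The ranges of neighbours in this order did not overlap except for CWLP and LTP2. EARLI1 averaged 28.4 ± 8.12 TPM, AT4G12490 averaged 9.48 ± 3.27 TPM, LTP3 averaged 6.55 ± 3.41 TPM and LTP4 averaged 3.29 ± 4.24 TPM (SD, n = 3 each). The last 3 overlapped one another, and LTP4 was at 0 in 1 of the 3 libraries. After enrichment with ADPRC the ranges of LTP1 and AT2G10940 overlapped, as did those of LTP2 and AZI1 and those of LTP3 and AT4G12490. LTP1 and LTP2 are neighbours on chromosome 2, LTP3 and LTP4 on chromosome 5, and AZI1 and EARLI1 on chromosome 4 with AT4G12490 close by in the TAIR10.1 annotation. LTP1 lay above LTP2 and AZI1 above EARLI1 in all 3 unenriched libraries with ADPRC, while the ranges of LTP3 and LTP4 overlapped. Related copies may share reads, so the split of reads within these groups is uncertain, and CWLP overlaps the listed non-coding gene AT3G22121.

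**Figure D1:**
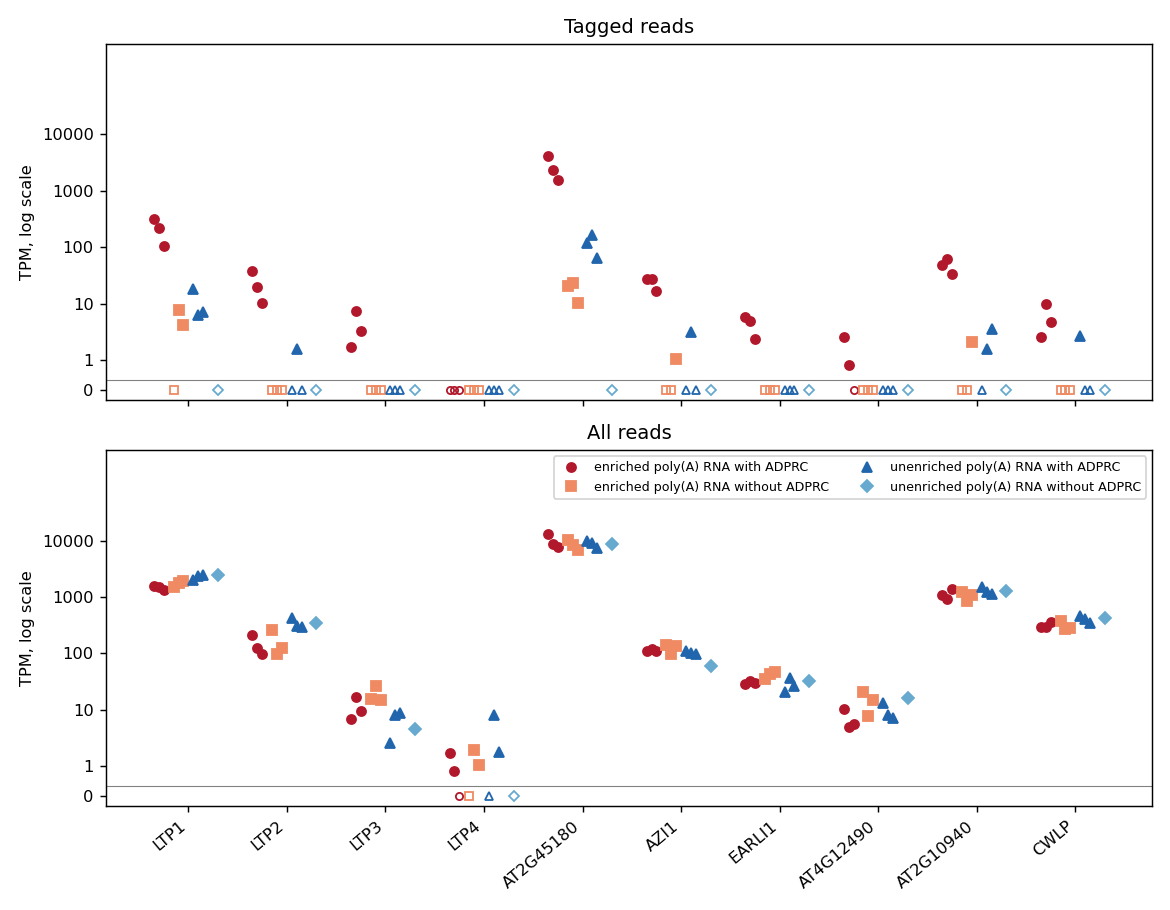
Tagged reads (upper panel) and all reads (lower panel) of the 10 genes in TPM on a log scale. Each point is 1 poly(A) library, coloured by group, and hollow points below the grey line are libraries with 0 reads. In tagged reads the enriched libraries with ADPRC lie highest for AT2G45180, LTP1, LTP2, AZI1 and AT2G10940, before any centring or quantile scaling, which turns some directions, CWLP overlaps an unenriched library (2.55 and 2.64 TPM), and LTP4 is at 0 throughout. Of all genes tested in tagged reads, 96.7% were called higher with than without ADPRC and 95.7% higher after than before enrichment. In all reads the enriched and unenriched libraries overlap for every gene but LTP1 and LTP2. These lie lower in every enriched library, as do 3.14% of 18831 genes.

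The first comparison asked which of the genes had tagged RNA above the reaction without the enzyme. AT2G45180 had 4190, 2358 and 1581 tagged TPM in enriched libraries with ADPRC, against 20.5, 23.0 and 10.5 tagged TPM in enriched libraries without it. LTP1 had 314, 216 and 105 tagged TPM with ADPRC, against 0, 7.68 and 4.22 without it. AT2G10940 had 49.3, 62.3 and 34.0 tagged TPM with ADPRC, against 0, 0 and 2.11 without it. These differences are not particular to these genes, since 96.7% of the 7634 genes tested were called higher in this comparison.

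AZI1, whose protein takes part in priming of systemic immunity by azelaic acid, had 28.1, 27.0 and 17.0 tagged TPM with ADPRC, against 0, 0 and 1.05 without it. LTP2 had 38.3, 19.7 and 10.5 tagged TPM with ADPRC, CWLP, a cell wall to plasma membrane linker, had 2.55, 9.83 and 4.86, EARLI1, a gene known for induction by cold and aluminium, had 5.95, 4.92 and 2.43, and LTP3, a gene known for induction by abscisic acid and drought, had 1.70, 7.37 and 3.24. These 4 genes had 0 tagged reads in every library without ADPRC. AT4G12490 had 3, 1 and 0 tagged reads in the enriched libraries with ADPRC and 0 in the others. LTP4, the neighbour of LTP3, had no tagged read in any of the 12 libraries, with 3 reads in all over the 3 enriched libraries with ADPRC, so that a tagged share could not be told at this depth.

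The mean tagged level of AT2G45180 was 150-fold higher with than without ADPRC, and that of LTP1 was 53.3-fold higher. The tagged part of all reads was higher too, at 14.1% to 23.9% with ADPRC against 0.132% to 0.224% without it. The folds in this paragraph include that difference. Without replicate 2 of the libraries without ADPRC the ratio for LTP1 was 100.3, and without replicate 1 of them, which had no tagged read of LTP1, it was 35.6. Over pooled reads the ratio was 167 (95% counting interval 117 to 247) for AT2G45180 and 48.8 (24.6 to 113) for LTP1. AT2G10940 had 2 tagged reads without ADPRC and a pooled ratio of 45.1 (12.3 to 375), and AZI1 had 1 and a pooled ratio of 44.6 (7.79 to 1780). Against a floor of 3 reads over the libraries without ADPRC, LTP2 was at least 14.1-fold higher with ADPRC, CWLP at least 3.56-fold, EARLI1 at least 2.75-fold and LTP3 at least 2.54-fold. No fold is given for AT4G12490, whose mean of 1.12 TPM lay under the floor of 1.61 TPM.

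All 8 genes tested were called higher with ADPRC by limma at an adjusted p under 0.05, where 96.7% of the 7634 genes tested were called higher, but 7 of the 8 turned negative with centred libraries and LTP3 also with quantile scaling. The share called is that of the background, and LTP2, LTP3, EARLI1 and CWLP passed the filter on low values through the libraries with ADPRC alone. The tests of LTP2, LTP3, EARLI1 and CWLP therefore add no support beyond their read counts. LTP4 and AT4G12490 were not tested, with reads in fewer than 3 libraries. Without any 1 of the enriched libraries with ADPRC 4 of the 8 genes could still be tested, and all 4 were called. On the log2(TPM + 0.953) scale the difference was 7.11 for AT2G45180 (SE 0.66, limma adjusted p = 0.000148), 5.79 for LTP1 (SE 0.91, limma adjusted p = 0.00122) and 2.25 for LTP3 (SE 0.43). The median of the 8 was 4.39 and that of all genes tested was 2.32. Differences on this scale are held down for genes with few tagged reads, such as LTP3, EARLI1 (2.44) and CWLP (2.66). The medians thus depend on abundance and do not measure how strongly a gene was tagged. When libraries were centred on the genes tagged in all of them the median of all genes was -3.81. The values of 7 of the 8 genes turned negative (-0.34 to -3.89), while AT2G45180 had 0.98 (limma adjusted p = 0.0960). Centring used 90 genes that had tagged reads even without ADPRC, and it takes out the difference in tagged level that they share. Centred values therefore do not show whether tagged RNA lay above the reaction without the enzyme.

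In the reaction without ADPRC, AT2G45180 held 8, 12 and 10 of the 513, 1166 and 2082 tagged reads of the enriched libraries. Its tagged share of 0.212% ± 0.0622 (SD, n = 3) there lay close to the library shares of 0.132%, 0.224% and 0.220%. LTP1 had 0, 4 and 4 tagged reads in the same libraries. In the unenriched library without ADPRC all 10 genes had 0 tagged reads, which for AT2G45180 with 3827 reads allows a share of up to 0.0784% and for LTP1 with 1062 reads up to 0.282%.

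Before enrichment few tagged reads were available. AT2G45180 had 4190, 2358 and 1581 tagged TPM in enriched libraries with ADPRC, against 122, 168 and 64.3 in unenriched libraries with ADPRC. LTP1 had 314, 216 and 105 after enrichment, against 18.5, 6.46 and 7.15 before it. The mean tagged level was 23.0-fold higher after enrichment for AT2G45180 and 19.8-fold higher for LTP1, where it was 31.1-fold without unenriched replicate 1. The tagged part of all reads rose too, from 0.546% to 0.743% before enrichment to a range of 14.1% to 23.9% after it. These folds include that rise and are not particular to these genes. Unenriched libraries held 3 tagged reads of AT2G10940, 2 of AZI1, 1 of LTP2 and 1 of CWLP over all 3 libraries, and none of LTP3, LTP4, EARLI1 and AT4G12490. The pooled ratios were 25.2 (8.47 to 123) for AT2G10940, 18.7 (5.01 to 157) for AZI1, 35.2 (6.14 to 1406) for LTP2 and 9.01 (1.45 to 373) for CWLP. EARLI1 was at least 2.30-fold and LTP3 at least 2.13-fold higher after enrichment.

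Here too all 8 genes tested were called higher by limma, among 95.7% of 7623 genes tested, but 7 of the 8 turned negative with centred libraries, and LTP1, AT2G45180 and CWLP with quantile scaling. The count is that of the background, and LTP3 and EARLI1 passed the filter on low values through the enriched libraries alone. The tests of LTP3 and EARLI1 here add no support beyond their read counts. The log2 differences were largest for AT2G45180 (SE 0.51, limma adjusted p = 0.000435, a fitted 22.6-fold) and smallest for CWLP (1.81, SE 0.61, limma adjusted p = 0.0278). CWLP's call was lost without enriched replicate 2 (limma adjusted p = 0.0803) and without unenriched replicate 2 or 3 (limma adjusted p = 0.0804 and 0.0808). With edgeR 6 of the 8 were called, and CWLP and LTP3 were not. When libraries were centred on the genes tagged in all of them the median of all genes moved to -2.31, and AT2G45180 had 0.18 (limma adjusted p = 0.515). Centring here used 326 genes that had tagged reads before enrichment too, and it takes out the difference in tagged level that they share.

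The tagged share, tagged reads over all reads of the same gene, differed widely among the genes. In enriched libraries with ADPRC, 32.6%, 27.7% and 20.6% of the reads of AT2G45180 were tagged, with 95% Wilson intervals of 31.9% to 33.4%, 26.8% to 28.5% and 19.8% to 21.4%. The shares of all reads of those libraries were 23.9%, 20.9% and 14.1%, so AT2G45180 lay above its library in 3 of 3. AZI1 had 25.2%, 22.9% and 15.1%, just above the library share in each, and its Wilson intervals of 18.5% to 33.3%, 16.8% to 30.4% and 10.1% to 22.0% included that share.

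LTP1 had 20.2%, 14.4% and 7.94%, and LTP2 had 18.0%, 15.9% and 10.8%. Both lay below the library share in all 3 libraries, though the Wilson intervals of LTP2 in replicates 2 and 3 (10.9% to 22.6% and 6.44% to 17.7%) included it. EARLI1 had 20.6%, 15.4% and 8.11%, from 16 of 110 reads, also below it in each library, though its Wilson intervals of 10.3% to 36.8%, 7.25% to 29.7% and 2.80% to 21.3% included the library share. LTP3 had 25%, 42.9% and 33.3% from 15 of 41 reads, above its library in all 3, though the Wilson intervals in replicates 1 and 3 (7.15% to 59.1% and 13.8% to 60.9%) included the library share. AT4G12490 had 25%, 16.7% and 0% from 4 of 25 reads, too few to place it.

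The remaining hybrid proline-rich genes had the lowest shares. AT2G10940 had 4.64%, 6.63% and 2.45%, from 176 of 4112 reads. CWLP had 0.882%, 3.39% and 1.35%, from 21 of 1140 reads. Both lay far below the library share in every library, and replicate 2 was the highest for both, where AT2G45180, AZI1, LTP1, LTP2 and EARLI1 were highest in replicate 1. Of AT2G10940 about 781 tagged reads would have been counted at the library shares, against 176 observed, and for CWLP 218 against 21.

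Among the 1391 genes at 100 TPM or more in all reads of these libraries the median share was 18.4%, with quartiles of 11.8% and 25.2%. AT2G45180 lay above 79.5% of them, AZI1 above 59.4%, LTP2 above 36.5%, LTP1 above 34.1%, AT2G10940 above 7.76% and CWLP above 2.80%. AT2G45180 averaged 2710 tagged TPM against 9688 TPM in all reads, and CWLP averaged 5.75 tagged TPM against 314 TPM in all reads. AZI1 had more tagged RNA than CWLP, at 24.0 tagged TPM, although its level in all reads was lower, at 114 TPM.

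**Figure D2:**
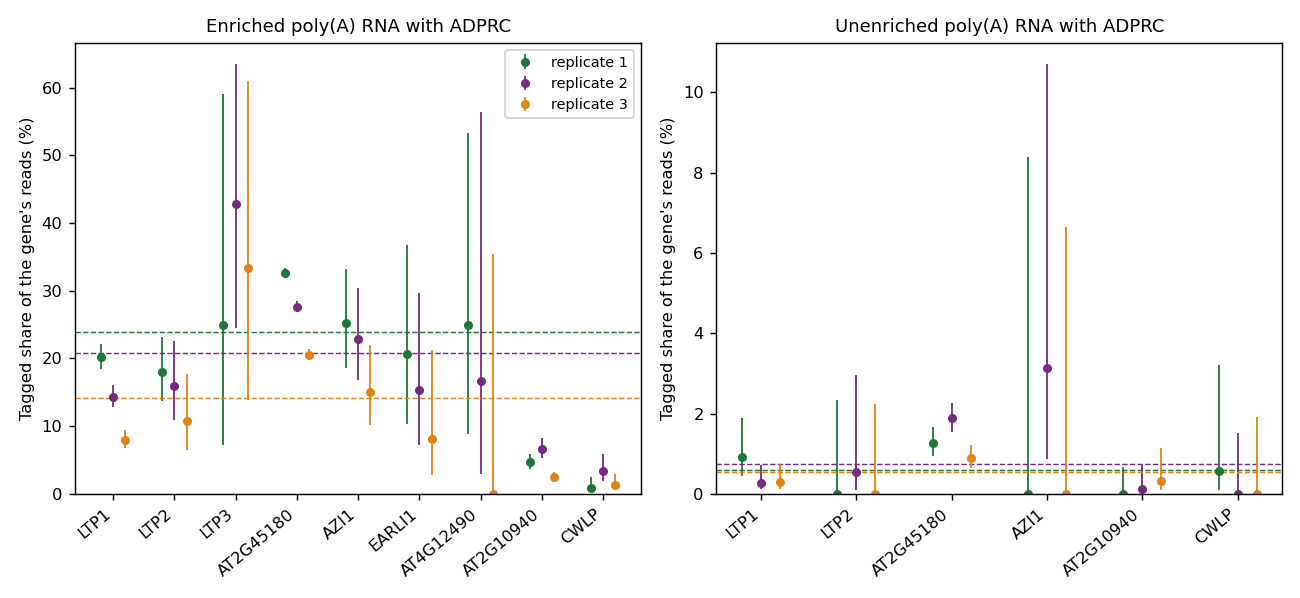
Tagged share of each gene's reads, in percent, in enriched (left) and unenriched (right) poly(A) libraries with ADPRC. Points are libraries with 95% Wilson intervals, and dashed lines of the same colour are the tagged share of all reads of that library. AT2G45180 lies above the line in all 6 libraries, AT2G10940 and CWLP lie far below it after enrichment, and the genes on the right are those at 100 TPM or more.

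The share was tested per library against the share of all its reads for the 6 genes at 100 TPM or more. In enriched libraries limma called 1 of the 6 higher, where 29.0% of the 1391 genes tested were higher, and 4 of the 6 lower, where 36.9% were lower. AT2G45180 was 1.38-fold above the library share (log2 0.46, SE 0.11, limma adjusted p = 0.00191). CWLP was 10.3-fold below it (log2 -3.36, SE 0.47, limma adjusted p = 5.04e-05) and AT2G10940 4.48-fold below it (log2 -2.16, SE 0.35, limma adjusted p = 0.000148). These 3 calls held without each replicate in turn and under every other setting that tested the gene.

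LTP1 lay 1.45-fold below the library share (log2 -0.53, SE 0.18, limma adjusted p = 0.0182), a call that was lost without replicate 3 (limma adjusted p = 0.129). LTP2 lay 1.30-fold below it (log2 -0.38, SE 0.15, limma adjusted p = 0.0425), and this call was lost without any 1 replicate (limma adjusted p = 0.103 to 0.116), with edgeR (adjusted p = 0.0617) and relative to the median gene (limma adjusted p = 0.128). AZI1 was not called, with log2 0.10 and a 95% interval of -0.16 to 0.35 (limma adjusted p = 0.474). The count of called genes was 5 of 6 over all libraries and 3 of 6 without replicate 3.

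In unenriched libraries with ADPRC the share of AT2G45180 was 1.25%, 1.88% and 0.881%, against library shares of 0.586%, 0.743% and 0.546%. It was 2.02-fold above the library share (log2 1.02, SE 0.25, limma adjusted p = 0.0443) and the only 1 of the 6 called higher, where 3.24% of 1328 genes were called higher. No gene of the 6 was called lower, where 31.4% were. That percentage includes genes with no tagged read in any of the 3 libraries, such as AT2G15050 (limma adjusted p = 0.0271). At the library shares 0.258 to 0.691 tagged reads of it were expected per library. The percentage is therefore no measure of how many genes had a low share. The call for AT2G45180 was lost without replicate 1, 2 or 3 (limma adjusted p = 0.0840, 0.203 and 0.0787). LTP1 had 0.923%, 0.280% and 0.286%, and only replicate 1 lay above its library. AT2G10940 had 0%, 0.130% and 0.315%, and its log2 of -1.61 was not called (95% interval -2.77 to -0.46, limma adjusted p = 0.0515). LTP2, CWLP and AZI1 each had tagged reads in 1 of the 3 unenriched libraries, with 0.246 to 1.85 tagged reads expected per library at the library shares, so their shares could not be placed at this depth. Without replicate 1, LTP1 and AT2G10940 were called lower (limma adjusted p = 3.09e-05 and 1.35e-06), from 4 and 4 tagged reads of LTP1 and 1 and 2 of AT2G10940 in the remaining pair of libraries.

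The relative share after enrichment was set against that before it in 1 fit. None of the 6 genes was called by limma (1 at an unadjusted p under 0.05), where 0.524% of 1146 genes were higher and 3.93% were lower. The difference was -0.56 for AT2G45180 (95% interval -1.23 to 0.11, limma adjusted p = 0.308) and -2.22 for CWLP (-3.56 to -0.88, limma adjusted p = 0.0759). With edgeR 1 of the 6 was called, AT2G45180 at -0.63 (adjusted p = 0.00973). Leaving out enriched replicate 2 called CWLP lower (limma adjusted p = 0.0339), with 1 tagged read of CWLP in all 3 unenriched libraries.

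Other genes of the family gave a mixed picture of tagged shares in the enriched libraries. Of 41 such genes on a list, 14 reached 100 TPM, and limma called 8 of them above and 3 below the library share, where 29.0% of all genes tested were above and 36.9% below. LTP5 had a tagged share of 31.7% ± 7.17 (log2 0.70, limma adjusted p = 0.000119). The glycosylphosphatidylinositol-anchored lipid transfer proteins LTPG1 and LTPG2, which take part in wax export to the cuticle, had 29.4% ± 4.48 (log2 0.60, limma adjusted p = 0.000418) and 37.5% ± 9.91 (log2 0.92, limma adjusted p = 1.29e-05). ELP had 12.8% ± 3.92 (log2 -0.63, limma adjusted p = 0.00829) and AT4G22490 had 9.97% ± 3.66 (log2 -0.98, limma adjusted p = 0.00154), each SD with n = 3. The call for ELP was lost without replicate 3 (limma adjusted p = 0.0705). AT1G62510 (log2 -0.34) and AT5G48490 (log2 -0.06) were not called. AT2G15050 lay under 100 TPM after enrichment and was not tested.

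The median over the 14 was 0.36, against -0.46 over the 6 of the chosen genes that were tested and -0.11 over all genes. Of 15 genes of cuticle formation and the epidermis 3 were tested and all 3 were called lower, where 36.9% of all genes tested were. They were the wax synthesis gene KCS6 at 14.2% ± 3.62 (log2 -0.46, limma adjusted p = 0.0377), KCS10 at 4.87% ± 2.49 (log2 -1.99, limma adjusted p = 0.000689) and the epidermal gene PDF1 at 7.56% ± 4.38 (log2 -1.47, limma adjusted p = 0.000752), each SD with n = 3. The call for KCS6 was lost without replicate 1 or 3 (limma adjusted p = 0.254 and 0.118) and relative to the median gene (limma adjusted p = 0.0947). The wax exporter ABCG12 lay under 100 TPM after enrichment.

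**Figure D3:**
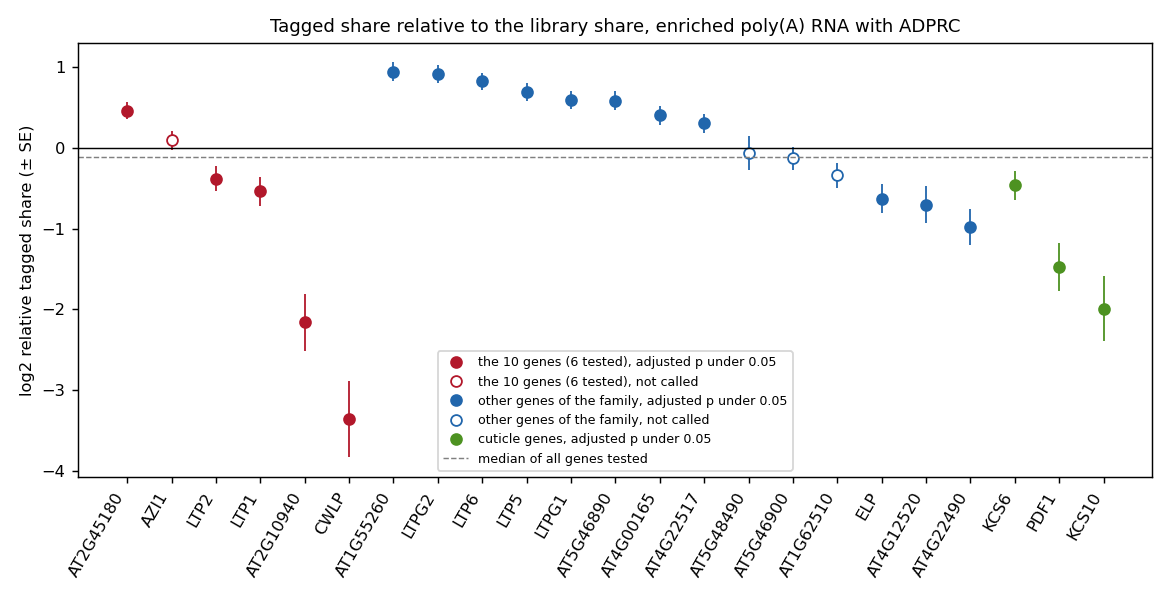
Log2 of the tagged share over the library share, ± SE, in the 3 enriched poly(A) libraries with ADPRC. The 6 genes tested of the 10 (red) stand left of the other family genes (blue) and the cuticle genes (green), filled where the limma adjusted p is under 0.05. AT2G45180 at 0.46 is the highest of the red points, and CWLP at -3.36 lies lowest of all 23 genes shown.

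The level in all reads did not change detectably with ADPRC. Of the 10 genes limma called 0 (0 at an unadjusted p under 0.05, 0 with edgeR), where 0.0731% of 19150 genes were called higher and 0.0418% lower. With the replicate number as a block, 151 genes were called higher and 62 lower in place of 14 and 8, and none of the 10 was among them. AT2G45180 had a log2 difference of 0.18 (95% interval -0.28 to 0.65) and LTP1 one of -0.23 (-0.56 to 0.10). The widest intervals were those of LTP4 (-1.49 to 1.29) and AT4G12490 (-1.93 to 0.10).

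Enrichment was a different case for the neighbouring pair LTP1 and LTP2. LTP2, whose product is linked to cuticle integrity in seedlings, had 213, 124 and 97.2 TPM in all reads of enriched libraries with ADPRC, against 426, 302 and 300.2 TPM in unenriched libraries with ADPRC. LTP1 had 1552, 1507 and 1316 TPM after enrichment, against 2004, 2308 and 2502 TPM without it. Whether enriched and unenriched libraries overlapped is given below over all poly(A) libraries, with the share of all genes. LTP2 was 2.46-fold lower after enrichment (log2 -1.30, SE 0.25, limma adjusted p = 0.0150) and LTP1 was 1.55-fold lower (log2 -0.64, SE 0.13, limma adjusted p = 0.0183).

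Of the 10 genes these 2 were called lower and 0 higher, where 1.96% of 18831 genes were lower and 2.99% higher. CWLP had -0.36 (95% interval -0.69 to -0.03) and was not called (limma adjusted p = 0.201). AT2G45180 had 0.14 (-0.28 to 0.55) and AZI1 had 0.14 (-0.20 to 0.47). The calls depended on single unenriched libraries. LTP2 missed the threshold without unenriched replicate 1, 2 or 3 (limma adjusted p = 0.0695, 0.0621 and 0.0638), and LTP1 missed it without replicate 2 or 3 (limma adjusted p = 0.0894 and 0.0974), while the differences stayed between -1.13 and -1.38 for LTP2 and at -0.62 and -0.56 for LTP1.

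Libraries without ADPRC were compared in the same way. LTP2 had 262, 96.0 and 123 TPM in enriched libraries without ADPRC, against 345 TPM in the unenriched library without it. LTP1 had 1503, 1743 and 1895 TPM, against 2443 TPM. Over all poly(A) libraries each of the 6 enriched ones lay below each of the 4 unenriched ones for LTP1 and for LTP2, and for none of the other 8 genes, where 3.14% of 18831 genes showed this. In a fit of these 10 libraries with ADPRC as a term, added after the values were seen, LTP2 differed by -1.27 (SE 0.19, limma adjusted p = 3.86e-06) and LTP1 by -0.60 (SE 0.12, limma adjusted p = 0.000464). CWLP passed the threshold there at -0.41 (limma adjusted p = 0.0495). Seedling markers moved in both directions in the fit of libraries with ADPRC. Of 5 root markers limma called PYK10 lower (log2 -1.06) and TIP2;3 higher (log2 0.93). Of 3 shoot markers it called CAB1 lower (log2 -0.73), while RBCS1A had 0.49 (95% interval 0.18 to 0.79) and PSBO1 -0.36 (-0.63 to -0.10) and neither was called. The part of these markers in the result was not tested.

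**Figure D4:**
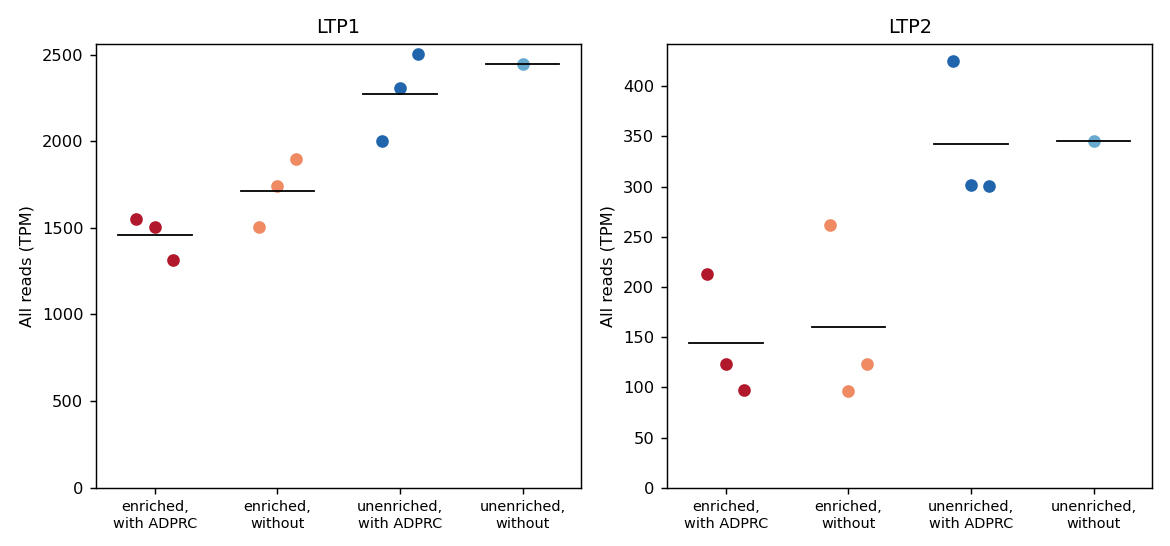
LTP1 (left) and LTP2 (right) in all reads, in TPM, for each poly(A) library by group. Points are libraries and lines are group means. Each of the 6 enriched libraries lies below each of the 4 unenriched libraries for both genes, as for 3.14% of 18831 genes.

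Of the 41 other family genes 32 were tested in the same comparison, and limma called 4 higher and 2 lower after enrichment, where 2.99% of all genes tested were higher and 1.96% lower. The higher ones were LTPG2 (log2 0.72) and, named after their values were seen, LTP6 (log2 1.21), AT3G22600 (log2 1.07) and AT4G12520 (log2 0.86). The lower ones were AT2G15050 (log2 -0.85) and AT4G22490 (log2 -0.82). Each of these 6 calls was lost without 1 or more of the unenriched libraries. Of the 15 cuticle and epidermis genes 14 were tested, and ABCG12 was the only 1 called (log2 -0.80, limma adjusted p = 0.0363). The 14 values ran from -0.80 to 0.35, with a median of -0.35.

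Together the 10 genes made up 1.94%, 1.30% and 1.24% of the tagged reads of enriched libraries with ADPRC, and 1.61%, 1.16% and 1.10% of all reads of the same libraries. AT2G45180 alone held 1.75%, 1.13% and 1.12% of the tagged reads. It ranked 5 among all genes by tagged level after enrichment and 6 before it. In enriched total RNA with ADPRC, 2 of the 42 reads of AT2G45180 were tagged, a share of 4.76% (Wilson interval 1.32% to 15.8%), and the library share was 4.80%. None of the 12 reads of LTP1 in that library was tagged, which allows up to 25%. In total RNA without ADPRC none of 8 reads of AT2G45180 was tagged, which allows up to 37.5%.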

How the data were processed

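The authors deposited 1 table of tagged reads and 1 of all reads with a value per gene and library, named TPM per the file headers. The deposited values behave as CPM (counts over all reads of the library), although the authors' headers say TPM. All 38774 and 177709 values above 0 (100% of each) were whole multiples of 1 read within 0.01 reads, so whole reads were recovered. A row that names no gene (at most 8.19e-05% of a library) was left out. A build, aligner or tag caller is not given in the sources used here. Symbols and neighbours came from TAIR10.1 (22102 of 22337 genes matched, with all 10 among them). No sequence table was at hand, so none is printed. The members and gene lists were chosen with earlier results of these data known.

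limma 3.58.1 (R 4.3.3; lmFit, eBayes with trend, two-sided) was fitted to all genes above 0 in at least 3 libraries, on log2(TPM + pseudocount), with Benjamini-Hochberg adjustment and a threshold of 0.05. The pseudocount (each library's lowest non-zero value, median over the fit) was 0.953 with against without ADPRC and 1.23 enriched against unenriched. Such differences understate the change of low genes. Shares were tested as log2(tagged + pseudocount) minus log2(all reads × library share + pseudocount), against 0 or between groups, at a mean of 100 TPM or more, with pseudocounts of 1.79 (unenriched), 0.819 (enriched) and 1.23 (both). edgeR 4.0.16 on recovered reads was an alternative, beside other pseudocounts, filters, scalings and left-out libraries. The fits were also run on simulated data, and the outcome is not given here. Changes were planted there only in genes above a minimum level in all reads, which LTP3, LTP4, EARLI1 and AT4G12490 did not reach. Intervals and floors (3 reads) cover counting error only; 1 read was 0.810 to 2.64 TPM in poly(A) libraries. Group ratios with few reads have exact binomial intervals.

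Named genes are the 10 members, the 8 most abundant other family genes and the 4 most abundant cuticle genes. Same-numbered enriched libraries with and without ADPRC deviated together (correlations of 0.162 to 0.257 in tagged and 0.103 to 0.150 in all reads). Their replicate numbers were therefore taken to pair them. The main fits left this pairing out, and it entered only as a block in an alternative fit.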

Additional observations from a re-analysis of the deposited data

How the results depend on the processing

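Of the values for the 10 genes, 579 kept their side of the threshold under the alternatives, 34 lost a call and 12 gained one. Another 18 turned sign and were called in the main fit, the alternative or both. Values called in neither fit are among the 579 even where their sign turned. The calls in tagged RNA depended on scaling. Centring and quantile scaling take out a difference in tagged level between groups that most genes share. With centred libraries the count with against without ADPRC was 5, all lower, with LTP1 at -0.34, LTP2 at -1.67, LTP3 at -3.89, AZI1 at -1.81, EARLI1 at -3.70, AT2G10940 at -1.04 and CWLP at -3.47. Enriched against unenriched it was 3, all lower, with LTP1 at -0.16, LTP2 at -0.61, LTP3 at -2.35, AZI1 at -0.61, EARLI1 at -2.17, AT2G10940 at -0.0813 and CWLP at -2.51. With quantile scaling the counts were 1 (LTP3 at -0.0357) and 0 (LTP1 at -0.29, AT2G45180 at -0.0825, CWLP at -0.52). Causes beyond the scaling were not tested. A mean of at least 10 TPM left 5 genes to test in each of these comparisons, and all 5 were called. Leaving out 1 replicate gave 4 to 8 and 5 to 8, with fewer genes passing the filter. In all reads, enriched against unenriched, centring called 1 gene and leaving out 1 replicate 0 to 2, while the fit with libraries without ADPRC, chosen after seeing the data, called 3. For the share in unenriched libraries, 0.25 times the pseudocount called 0, a mean of at least 500 TPM called 2, and leaving out 1 replicate 0 to 3, calls of CWLP and LTP2 that rest on libraries with no tagged read of the gene included. In enriched libraries the 500 TPM minimum called 3 of 3 and leaving out 1 replicate 3 to 4. For the difference of the shares, 4 times the pseudocount called 2 (CWLP and AT2G10940), the median gene 1 (CWLP), edgeR 1, and leaving out 1 replicate 0 to 1 (CWLP, or LTP2 against unenriched libraries with none of its tagged reads). The replicate block changed no count for the 10 genes: 8 in both tagged comparisons, 0 and 2 in all reads, and 0 for the difference of the shares. Same-numbered enriched and unenriched libraries did not deviate together (correlations of -0.0262 to 0.0417 in tagged and -0.00527 to 0.0158 in all reads), so they share a number only. Over all genes, leaving out 1 replicate gave 0 to 37 genes higher with ADPRC in all reads. The ratios of mean tagged level without single libraries were also chosen after seeing the data. Depth limits LTP3, LTP4, EARLI1 and AT4G12490, and all tagged shares before enrichment other than that of AT2G45180.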
